A study of Homo sapiens with 15 samples.

Results

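The unfolded protein response and the folding machinery of the endoplasmic reticulum (ER) were followed through 36 genes, chosen by symbol from the 26485 gene symbols of the deposited count tables. They comprise the 3 stress sensors with XBP1, 7 chaperones and secreted factors, 4 J-domain co-chaperones, 3 genes of the lectin chaperone cycle, 4 protein disulfide isomerases, 10 genes of ER-associated degradation (ERAD) and 4 genes of translocation and export. All 36 symbols were found, and all 36 passed the filter on low counts in the main fit of every comparison. The cells were PSN-1, a long-established human line of pancreatic ductal adenocarcinoma, cultured in RPMI medium with 10% serum. In one experiment they carried an siRNA against MondoA (siMondoA; gene symbol MLXIP), an siRNA against its DNA-binding partner MLX (siMLX) or a control siRNA (siControl) for 72 h. In the other they were exposed for 72 h to SBI-477, labelled as an inhibitor of MondoA, or to its vehicle DMSO. Each of the 5 groups has 3 libraries, 15 in all. The labels give neither the siRNA sequences, nor a rescue, nor the dose of SBI-477, so the loss of MondoA or MLX and other actions of the siRNA cannot be told apart. Whether replicates came from separate cultures is not stated, and p-values therefore measure the spread of these libraries alone, which may be technical. In bulk RNA, fewer cells of a kind and less RNA per cell cannot be told apart.

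Proteins that enter the secretory pathway fold in the ER, and a surplus of unfolded protein is sensed by a trio of membrane proteins. ERN1 (IRE1) splices the XBP1 messenger into a form that encodes a transcription factor, ATF6 is cleaved in the Golgi to release one, and EIF2AK3 (PERK) phosphorylates eIF2alpha, which slows protein synthesis and favours translation of ATF4. ATF6 and spliced XBP1 raise chaperones and ERAD genes, while ATF4 raises a separate set that includes DDIT3 and CHAC1 and can also be reached by kinases that do not sense the ER. Pancreatic exocrine cells carry a heavy secretory load, and much of this machinery is abundant in them. Gene-level counts do not show whether XBP1 was spliced or ATF6 cleaved.

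The elements through which ATF6 and XBP1 act are short, and the promoters that hold them are shown here because the genes behind them carry the canonical response. RefSeq promoters on GRCh38.p14, from 250 bases before to 50 after each annotated start, were found for 32 of the 36 genes. The ER stress element (ERSE), which is CCAAT, 9 bases of any kind and CCACG, searched on both strands, lay in 7 of the 32 (21.9%), against 25 of the 27305 genes with a promoter (0.0916%). The related ERSE-II, which is ATTGG, 1 base of any kind and CCACG, lay in 3 (9.38%, against 0.0696%), and the core of the XBP1-binding element, TGACGTGG, in 2 (6.25%, against 0.927%). The C/EBP-ATF element TGATGCAA, of the kind ATF4 and DDIT3 bind, lay in 1 (3.12%, against 1.08%). The E-box CACGTG, a core that MondoA and MLX recognise as a pair, lay in 5 (15.6%, against 8.77%). These genes were compiled as members of the response and the element was defined on several of their promoters, so the shares describe the list and test nothing. In the stretches that follow, written 5′ to 3′ along the gene's strand, capitals mark the fixed letters, on either strand, of the elements named on each line.
HSPA5, chr9:125241381-125241419, minus strand, ERSE: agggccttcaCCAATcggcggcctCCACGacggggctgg
CALR, chr19:12938374-12938412, plus strand, ERSE: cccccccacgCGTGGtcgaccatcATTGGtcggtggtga
CANX, chr5:179698768-179698806, plus strand, ERSE: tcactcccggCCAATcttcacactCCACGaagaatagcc
CRELD2, chr22:49918544-49918582, plus strand, ERSE: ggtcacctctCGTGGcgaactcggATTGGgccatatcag
SDF2L1, chr22:21642104-21642134, plus strand, ERSE-II: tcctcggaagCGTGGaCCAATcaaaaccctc
HYOU1, chr11:119057264-119057403, minus strand, ERSE-II at both ends, the first overlapped by the XBP1-binding core: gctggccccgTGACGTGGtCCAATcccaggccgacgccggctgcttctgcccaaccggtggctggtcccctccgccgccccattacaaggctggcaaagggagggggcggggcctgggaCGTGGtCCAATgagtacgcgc
HERPUD1, chr16:56931956-56932045, plus strand, C/EBP-ATF element, E-box and ERSE-II: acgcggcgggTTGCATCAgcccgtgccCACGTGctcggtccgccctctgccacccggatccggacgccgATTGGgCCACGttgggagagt
HSP90B1, XBP1 and PDIA6 hold the ER stress element as well. Of the motifs searched, the promoters of ERN1 and EDEM3, which led the changes below, held only a CCAAT box, found in 26 of the 32 and in 39.7% of all genes and itself part of the ERSE and ERSE-II. DNAJC10, which also changed below, held the XBP1-binding core. The 4 genes without a promoter sequence were PDIA3, DERL1, DERL3 and SEC24D, so DERL1 and DERL3, which changed too, could not be searched.

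Libraries held 11227343 to 14731691 counts in the siRNA experiment and 23315440 to 30480362 in the drug experiment. The siRNA targets were lower where labelled: MLXIP had 22.6, 23.4 and 15.7 CPM (counts relative to the TMM-scaled library total) in siMondoA, 62.3 to 68.1 in siMLX and 65.8 to 88.7 in siControl, and MLX had 11.9, 7.15 and 7.70 CPM in siMLX, 68.5 to 75.0 in siMondoA and 53.0 to 58.8 in siControl. The library siMLX replicate 2 nevertheless stood apart from its group: CHAC1, an ATF4 target that breaks down glutathione, had 102 CPM there, against 0.707 and 1.83 CPM in the other siMLX libraries and 72.8 to 106 CPM in siMondoA. In the drug experiment the deposited results and the labels of the replicates numbered 2 were at odds. The authors' deposited fold changes for SBI-477 were recovered from the counts only with the SBI-477 and DMSO libraries of that number exchanged, 1 of 9 exchanges tried, to a median absolute difference of 1.89e-07 on the log2 scale over 13086 genes, against 0.196 as labelled. Drug results are therefore given as labelled and for replicates 1 and 3. KRT7, KRT8, KRT18, KRT19, EPCAM and MUC1, which mark ductal epithelium, were detected in all 15 libraries and summed to 1430 to 2790 CPM. Of other cell types, the 4 acinar markers summed to 27.1 to 43.8 CPM in siMondoA, 6.32 to 23.5 in siMLX and 29.3 to 80.8 in siControl, mostly PRSS1, with CELA3A at 0 in all 15 libraries. The 5 fibroblast markers, led by COL3A1 and LUM, summed to 525 to 807 CPM in siMondoA, 576 to 771 in siMLX and 513 to 682 in siControl, against 85.5 to 232 with SBI-477 and 48.7 to 296 with DMSO. The 4 leukocyte markers summed to 43.2 to 44.1 CPM in siMondoA, 22.7 to 29.7 in siMLX and 18.3 to 25.6 in siControl, nearly all CD68, with CD3E at 0 in all 15 and PTPRC at most 0.152 CPM. Endothelial markers summed to 8.58 to 20.8 CPM over the 15 libraries and plasma cell markers, nearly all SDC1, to 24.5 to 106 CPM. The part of these markers in the results was not tested.

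Together the 36 genes took 1.08, 1.23 and 0.98% of all counts in siMondoA, 0.927, 0.757 and 0.961% in siMLX and 1.02, 1.03 and 1.01% in siControl. The siMondoA and siControl ranges overlapped and siMLX lay below both. In the drug experiment the share was 1, 0.997 and 0.958% with SBI-477 and 1.01, 0.973 and 1% with DMSO. Per kilobase of annotated exon, the most abundant member in siControl was CALR, the calcium-binding lectin calreticulin, at 366 ± 26.2 CPM per kilobase (SD, n = 3), followed by HSP90B1 (GRP94) at 311 ± 21.2 and HSPA5 (BiP), the chaperone that keeps the sensors inactive, at 274 ± 13.6. The sensors were far lower, with 17 ± 0.575 for ATF6, 3.61 ± 0.431 for EIF2AK3 and 0.773 ± 0.0509 for ERN1, and only DERL3 lay below ERN1, at 0.395 ± 0.162. In DMSO, CALR also led, at 468 ± 89.9 CPM per kilobase, and ERN1 was last, at 0.635 ± 0.172.

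Knockdown of MondoA changed 6 of the 36 genes: 3 were higher in siMondoA than in siControl (ERN1, DERL1 and P4HB) and 3 were lower (EDEM3, DERL3 and DNAJC10) at an adjusted p under 0.05 (edgeR's quasi-likelihood test, Benjamini-Hochberg over 13001 genes), while 27.2% of all genes tested were called, 14.2% higher and 12.9% lower. The members' median log2 fold change was 0.20, beside 0.004 over all genes, and 24 of 36 were above 0. The median rested on siMondoA replicate 2: without that library it was 0.06, and 2 genes were higher and 2 lower, beside 8.67% and 8.58% of all genes. ERN1, EDEM3, DERL1 and DERL3 kept their calls in all 11 alternative analyses. P4HB lost its call without siMondoA replicate 1 or 2 or any single siControl library, with log2 fold changes of 0.32 to 0.49 over the alternatives and an edgeR adjusted p up to 0.122. DNAJC10 lost its call without any single siMondoA library or without siControl replicate 2 or 3, with log2 fold changes of -0.49 to -0.38 and an edgeR adjusted p up to 0.0812.

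**Figure D1:**
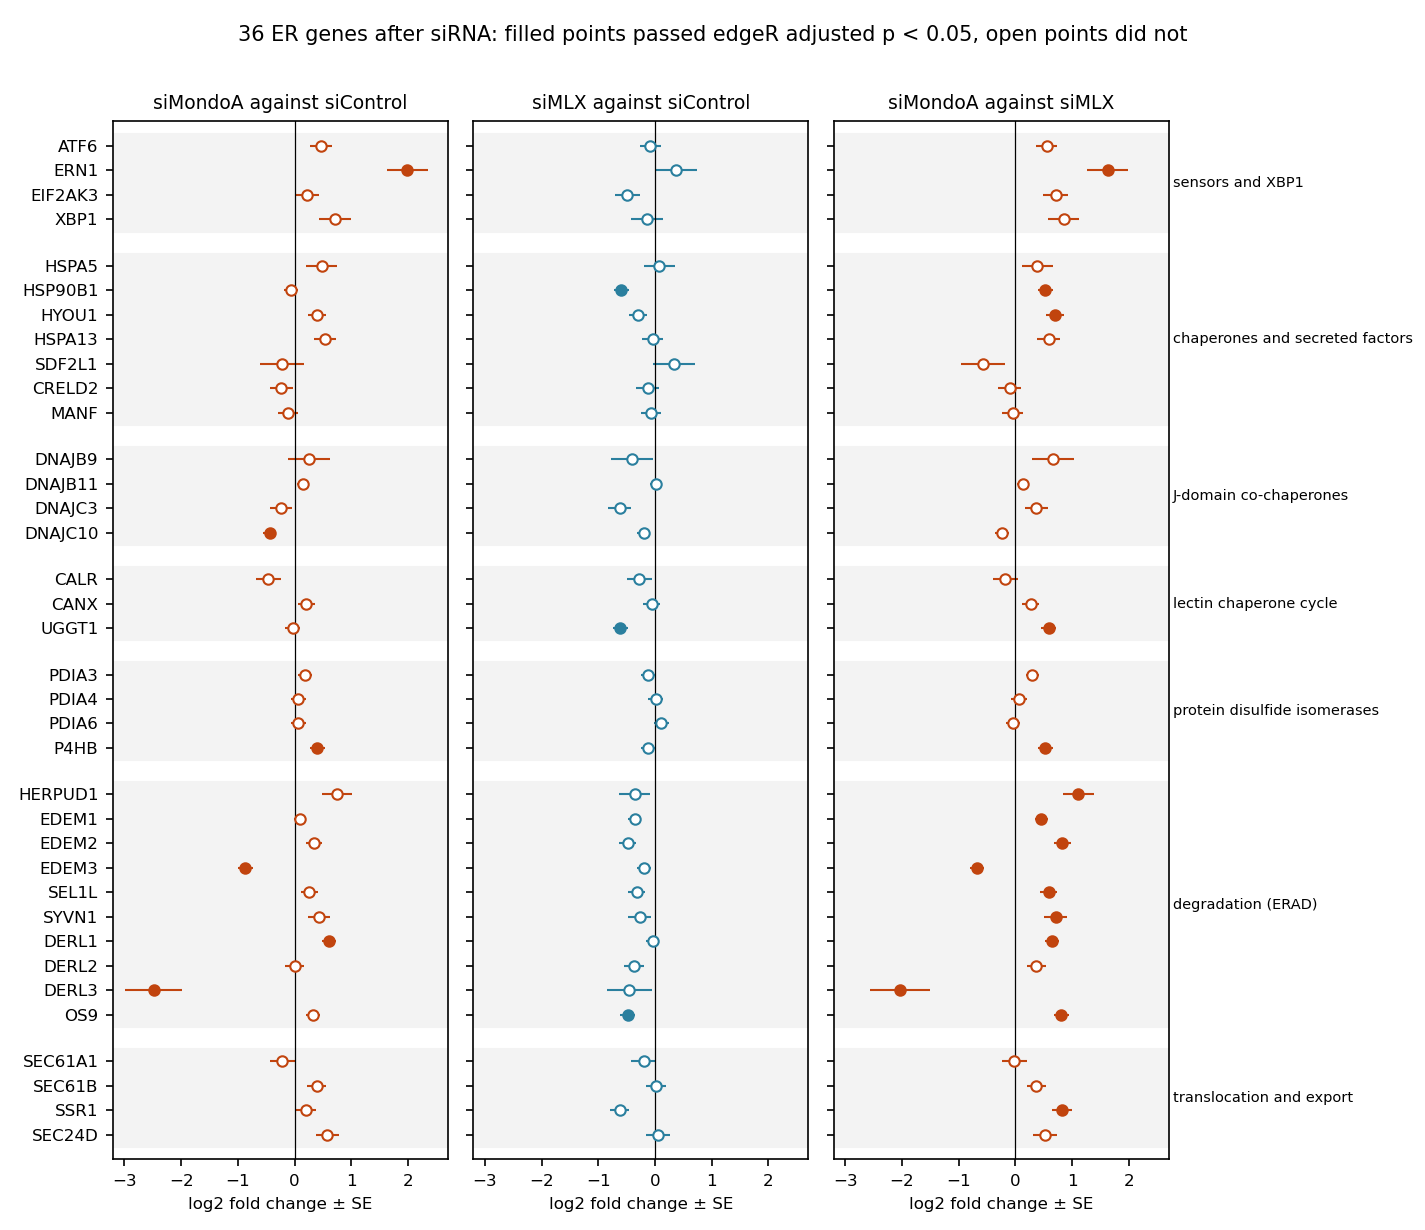
Log2 fold change (x axis) of each of the 36 ER genes, grouped by role, with the standard error of the edgeR fit, for siMondoA against siControl, siMLX against siControl and siMondoA against siMLX; filled points passed an adjusted p of 0.05. ERN1 lies furthest right and DERL3 furthest left after siMondoA, most siMLX points lie left of 0, and 13 points are filled right of 0 in the direct comparison.

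Among the sensors, only ERN1 passed the test. ERN1 (chr17:64039142-64130819, minus strand, GRCh38) had 23.9, 41.2 and 35.6 CPM in siMondoA, against 7.91, 8.30 and 9 CPM in siControl. Every siMondoA library lay above every siControl library, and the log2 fold change was 1.99 ± 0.36 (SE; 3.99-fold, edgeR adjusted p = 0.00434). XBP1 (chr22:28794555-28800597, minus strand), the substrate of ERN1, had 188, 227 and 182 CPM in siMondoA, against 159, 113 and 93.2 CPM in siControl. The groups did not overlap, but siControl replicate 1 lay near the lowest siMondoA library, and the log2 fold change of 0.71 ± 0.28 missed the threshold (edgeR adjusted p = 0.0813). XBP1 passed with DESeq2 (0.70 ± 0.28, adjusted p = 0.0427), with a replicate block (edgeR adjusted p = 0.0289) and with the 6 libraries alone (edgeR adjusted p = 0.02). The authors' deposited table gave XBP1 a log2 fold change of 0.74 (adjusted p 0.000708). ATF6 had 138, 233 and 185 CPM in siMondoA, against 134, 138 and 129 CPM in siControl, and its lowest siMondoA library met the highest siControl library (log2 fold change 0.47 ± 0.19, edgeR adjusted p = 0.0889). Without siMondoA replicate 2 it was 0.27, and without siMondoA replicate 1 it was 0.65 and passed (edgeR adjusted p = 0.0193), as it did with a replicate block (0.44, edgeR adjusted p = 0.0302). EIF2AK3 had 18.6, 29.3 and 20.7 CPM in siMondoA, against 20.4, 21.4 and 17.0 CPM in siControl, so the groups overlapped (0.22 ± 0.21, edgeR adjusted p = 0.455).

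**Figure D2:**
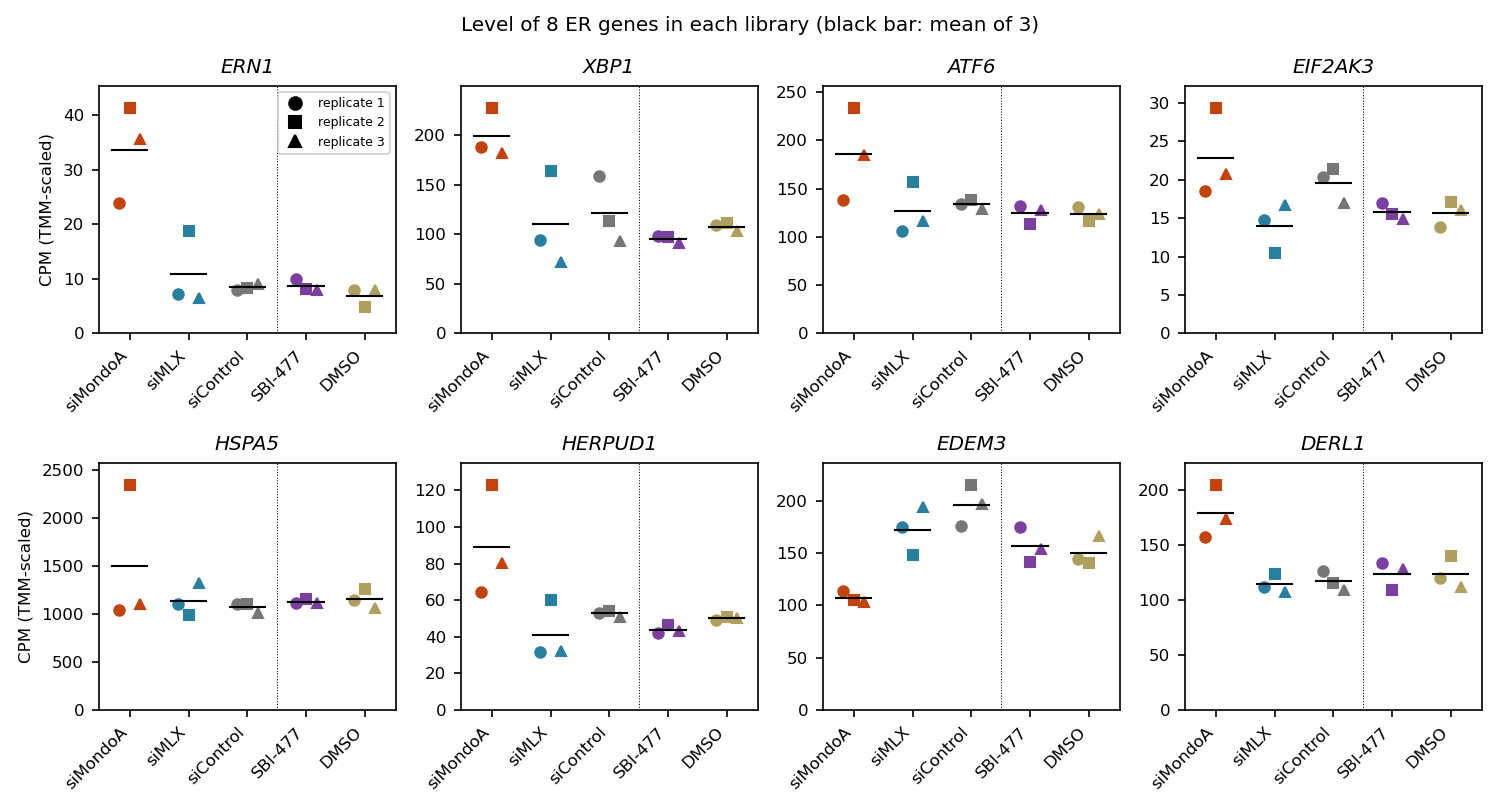
TMM-scaled CPM (y axis, from 0) of 8 ER genes in each library, by group (x axis), with the replicate number as the marker and the mean of 3 libraries as a black bar; a dotted line parts the siRNA from the drug experiment, which were scaled separately. ERN1 is high in the 3 siMondoA libraries and at 18.8 CPM in siMLX replicate 2, HSPA5 stands out only in siMondoA replicate 2, and EDEM3 is low in all 3 siMondoA libraries.

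The targets downstream of PERK and ATF4, 11 genes that are not among the 36, were higher in siMondoA. After siMondoA 10 of the 11 rose against siControl and the list's median log2 fold change was 2.81; NUPR1, a stress-induced chromatin protein, was the one that did not pass (3.22 ± 1.22, edgeR adjusted p = 0.074). DDIT3, the transcription factor CHOP, had 68.4, 99.5 and 99.9 CPM in siMondoA, against 6.66, 10.0 and 5.74 CPM in siControl. No siMondoA library overlapped the controls, and the log2 fold change was 3.58 ± 0.81 (edgeR adjusted p = 0.0112). ATF4 itself had 567, 836 and 627 CPM in siMondoA, against 259, 320 and 254 CPM in siControl (1.29 ± 0.28, edgeR adjusted p = 0.00948). Without siMondoA replicate 2, 9 of the 11 were higher and the median was 2.40. Of 12 other mediators tested, 2 were higher and 1 lower, a share near the 27.2% of all genes called. PPP1R15B, a phosphatase subunit that reverses the PERK mark, rose by 1.15 ± 0.20 (edgeR adjusted p = 0.00385). CREB3L2, an ATF6-like factor, rose by 0.54 ± 0.16 (edgeR adjusted p = 0.0323). MBTPS1, the protease that cleaves ATF6, fell by 0.35 (SE 0.10, edgeR adjusted p = 0.0274).

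No chaperone or secreted factor passed the test after siMondoA, and their median log2 fold change was -0.06. HSPA5 (chr9:125234853-125241330, minus strand) had 1040, 2340 and 1100 CPM in siMondoA, against 1100, 1100 and 1010 CPM in siControl. One siMondoA library was high and the others lay within the control range, so the log2 fold change of 0.48 ± 0.27 (edgeR adjusted p = 0.201) became -0.00 without siMondoA replicate 2. HSP90B1 (-0.06), the secreted factors CRELD2 (-0.23) and MANF (-0.12), and SDF2L1 (-0.22), a partner of BiP co-chaperones, were at or below 0. HYOU1, a nucleotide exchange factor for BiP, was at 0.40 (edgeR adjusted p = 0.0885), or 0.24 without siMondoA replicate 2, and HSPA13 at 0.54 (edgeR adjusted p = 0.0602). HSPA13 passed with DESeq2 (adjusted p = 0.0396), with a replicate block (edgeR adjusted p = 0.0102) and without siMondoA replicate 1 (edgeR adjusted p = 0.0103), and was at 0.33 without siMondoA replicate 2. HSP90B1 values are uncertain because it has processed pseudogenes, HSP90B2P and HSP90B3P. XBP1 (XBP1P1) and SSR1 (SSR1P1 and SSR1P2) have processed pseudogenes too. SYVN1 shares 7.2% of its exon bases with FAU on the same strand, so values of these genes are uncertain as well.

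Among the J-domain co-chaperones, DNAJC10 (ERdj5), a reductase that works with BiP in degradation, had 125, 140 and 143 CPM in siMondoA, against 170, 191 and 192 CPM in siControl. The groups did not overlap, and it fell by 0.44 on the log2 scale (SE 0.12, edgeR adjusted p = 0.0245). DNAJB9 (ERdj4), a repressor of IRE1 signalling, had 20.6, 76.0 and 35.8 CPM in siMondoA, spanning the 38.3, 42.9 and 29.5 CPM of siControl. DNAJB11 and DNAJC3, which guide substrates to BiP, were at 0.15 and -0.24.

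In the lectin cycle, which holds glycoproteins until folded, none of the 3 genes passed. CALR had 917, 545 and 694 CPM in siMondoA, all below the 1070, 972 and 932 CPM of siControl, with a log2 fold change of -0.46 ± 0.22 (edgeR adjusted p = 0.136). With a replicate block CALR passed (-0.50, edgeR adjusted p = 0.0303), as it did without siMondoA replicate 1 (-0.68, edgeR adjusted p = 0.0402), but it was at -0.30 without siMondoA replicate 2. CANX, its membrane-bound relative, was at 0.21 and UGGT1, which re-tags misfolded glycoproteins, at -0.03. Of the 4 disulfide isomerases, P4HB alone passed, with 951, 1040 and 830 CPM in siMondoA, against 778, 688 and 669 CPM in siControl, without overlap (0.40 ± 0.13, 1.32-fold, edgeR adjusted p = 0.0395). PDIA3, PDIA4 and PDIA6 lay at 0.18, 0.07 and 0.07. PDIA6 shares 25.2% of its exon bases with ATP6V1C2 on the other strand, and PDIA3 has the transcribed pseudogene PDIA3P1, so both are uncertain.

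ERAD genes diverged from each other after siMondoA, with 1 higher, 2 lower and 7 not passing. EDEM3 (chr1:184690231-184754913, minus strand), a mannosidase that marks glycoproteins for degradation, had 114, 105 and 103 CPM in siMondoA, against 176, 215 and 197 CPM in siControl. The groups were far apart, and EDEM3 fell by 0.87 on the log2 scale (SE 0.13, 0.548-fold, edgeR adjusted p = 0.00162), the smallest adjusted p of the 36. Its paralogs did not pass: EDEM1 was at 0.10 and EDEM2 at 0.35 (edgeR adjusted p = 0.0929), EDEM2 passing without siControl replicate 1 (0.50, edgeR adjusted p = 0.0396). DERL1, a channel component of retrotranslocation, had 158, 205 and 174 CPM in siMondoA, against 127, 116 and 109 CPM in siControl, again without overlap (0.61 ± 0.12, 1.53-fold, edgeR adjusted p = 0.00678). Its paralog DERL2 was at -0.00 ± 0.17. DERL3, the third paralog, had raw counts of 4, 3 and 3 in siMondoA, against 16, 12 and 33 in siControl. Pooled, 10 counts against 61, the ratio was 0.166 with an exact 95% interval of 0.0758 to 0.326 for counting error only, and the fitted log2 fold change was -2.48 ± 0.50 (edgeR adjusted p = 0.00719). DERL3 shares 77.0% of its exon bases (2923) with SMARCB1 on the opposite strand, and whether the library kit kept strand is not given, so its reads cannot be assigned with certainty.

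HERPUD1 (chr16:56932048-56944863, plus strand), a scaffold of the degradation complex whose promoter holds an ERSE-II, a C/EBP-ATF element and an E-box, had 64.4, 123 and 80.2 CPM in siMondoA, against 53.2, 54.3 and 50.9 CPM in siControl. Every siMondoA library was above the controls, yet the spread within siMondoA left the log2 fold change of 0.75 ± 0.27 short of the threshold (edgeR adjusted p = 0.0608). HERPUD1 passed with DESeq2 (adjusted p = 0.0286), without the low-count filter (edgeR adjusted p = 0.0407) and with a replicate block (edgeR adjusted p = 0.0141). It also passed with the 6 libraries alone (edgeR adjusted p = 0.0229) and without siMondoA replicate 1 (0.94, edgeR adjusted p = 0.0242). Without siMondoA replicate 2 it was at 0.45. The authors' deposited table gave HERPUD1 a log2 fold change of 0.70 (adjusted p 0.00311). SEL1L and SYVN1, the adaptor and the ubiquitin ligase of the same complex, were at 0.26 and 0.43 (SYVN1 at 0.15 without siMondoA replicate 2), and the lectin OS9 at 0.33 (edgeR adjusted p = 0.075, or 0.0395 with a replicate block).

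No translocation or export gene passed: SEC61A1, the channel subunit, was at -0.22, SEC61B at 0.39, the translocon-associated SSR1 at 0.20 and SEC24D, a COPII coat subunit, at 0.58 (edgeR adjusted p = 0.0671). SEC24D passed with DESeq2 (adjusted p = 0.0456) and without siMondoA replicate 1 (0.68, edgeR adjusted p = 0.0475) or 3 (0.74, edgeR adjusted p = 0.0496), and SEC61B without siMondoA replicate 3 (0.54, edgeR adjusted p = 0.0457), but without siMondoA replicate 2 they were at 0.28 and 0.20. Of the 7 genes with an ER stress element in the promoter, 0 were called by edgeR after siMondoA, beside 27.2% of all genes, and XBP1 and CALR passed in the alternatives named above. In wider secretory lists the shares called were below the 27.2% of all genes. Of 25 other ERAD genes 2 rose and 2 fell, with a median of 0.03: the selenoprotein S gene VIMP rose by 0.74 ± 0.17 (edgeR adjusted p = 0.0109) and the ligase RNF139 fell by 0.38 (SE 0.10, edgeR adjusted p = 0.0192). Of 31 translocation and glycosylation genes 3 rose and 2 fell, the signal recognition receptor SRPR rising by 1.04 ± 0.15 (edgeR adjusted p = 0.00163) and the oligosaccharyltransferase subunit MAGT1 falling by 0.78 (SE 0.12, edgeR adjusted p = 0.00244). Of 15 other COPII genes 3 rose and none fell, led by the coat subunit SEC24A at 0.94 ± 0.13 (edgeR adjusted p = 0.00154).

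Libraries of the same group differed by role. Median log2 differences from the siControl mean over all 36 genes were 0.07, 0.42 and 0.04 in siMondoA and -0.17, -0.39 and -0.15 in siMLX, so both replicates numbered 2 stood apart, in opposite directions. Over the PERK and ATF4 list they were 1.85, 3.02 and 2.62 in siMondoA and 0.21, 2.47 and 0.28 in siMLX. In siMLX replicate 2, that list therefore reached the siMondoA range while chaperones (-0.54), lectins (-0.82) and ERAD genes (-0.41) lay below the controls. ERAD genes were also low in siMLX replicates 1 and 3 (-0.29 and -0.31), where chaperones (0.04 and 0.06) and lectins (-0.07 and -0.07) lay near the controls. Sensors with XBP1 were at -0.33, 0.35 and -0.26 in siMLX.

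**Figure D3:**
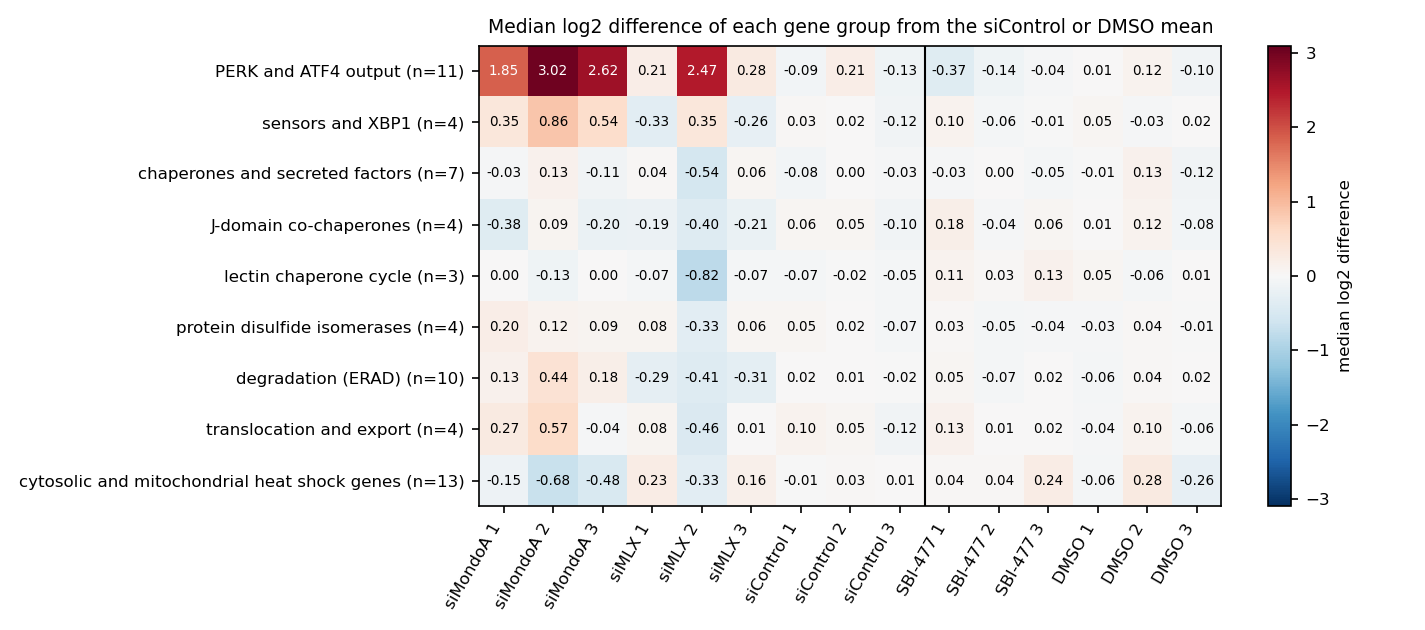
Median over the genes of a group (rows, n in brackets) of the log2 level in each library (columns) minus the mean of the siControl or DMSO libraries, on log2(CPM + 1); red is higher, blue is lower, and a line parts the experiments. The PERK and ATF4 row runs from 1.85 to 3.02 in siMondoA and reaches 2.47 in siMLX replicate 2, while the chaperone row runs from -0.11 to 0.13 in siMondoA.

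After knockdown of MLX, 3 of the 36 genes were lower in siMLX than in siControl and 0 higher, a share near the 8.41% of all genes tested that were called, 3.72% higher and 4.69% lower. The median log2 fold change was -0.19, beside 0.018 over all genes. HSP90B1 had 1030, 798 and 1080 CPM in siMLX, against 1380, 1580 and 1430 CPM in siControl, and fell by 0.59 on the log2 scale (SE 0.13, 0.663-fold, edgeR adjusted p = 0.0192). UGGT1 had 86.9, 75.8 and 105 CPM in siMLX, against 126, 134 and 150 CPM in siControl, and fell by 0.61 (SE 0.13, edgeR adjusted p = 0.0205). OS9 had 143, 132 and 125 CPM in siMLX, against 214, 182 and 162 CPM in siControl, and fell by 0.48 (SE 0.13, edgeR adjusted p = 0.0421). No siMLX library overlapped the controls for these genes. All 10 ERAD genes lay below 0, between -0.48 and -0.04, and 28 of the 36 genes did. With the replicate number as a block 6 genes fell, beside 7.44% of all genes called lower and 6.52% higher: the same 3 with EDEM1 (-0.36 ± 0.10, edgeR adjusted p = 0.0381), EDEM2 (-0.47 ± 0.13, edgeR adjusted p = 0.0394) and SSR1 (-0.62 ± 0.17, edgeR adjusted p = 0.0427).

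These calls depended on the libraries used. Without siControl replicate 1 or 2, 0 genes were lower, beside 1.14% and 1.49% of all genes, and without siControl replicate 3, 1 was, beside 2.37%. Without siMLX replicate 1, 2 or 3, 2 were lower in each case, beside 3.44%, 3.68% and 1.65% of all genes, with 2.59% higher without siMLX replicate 2. HSP90B1 lost its call without any single siControl library, UGGT1 without those or siMLX replicate 1, and OS9 without any single siMLX library or siControl replicate 1 or 2. Over the alternatives the edgeR adjusted p reached 0.0837 for HSP90B1, 0.0792 for UGGT1 and 0.157 for OS9, with log2 fold changes of -0.68 to -0.47, -0.75 to -0.51 and -0.57 to -0.37. Values of ERN1, XBP1 and ATF6 after siMLX rested on replicate 2: ERN1 had 7.16, 18.8 and 6.55 CPM in siMLX, against 7.91 to 9 CPM in siControl, and its log2 fold change was 0.37 ± 0.37, or -0.30 ± 0.23 without siMLX replicate 2. XBP1 had 94.4, 164 and 72.4 CPM in siMLX and ATF6 had 106, 157 and 116 CPM, replicate 2 again being the highest. EIF2AK3 went the other way, with 14.8, 10.5 and 16.7 CPM in siMLX, replicate 2 being the lowest. Each lay below the 17.0 to 21.4 CPM of siControl, but EIF2AK3 did not pass. Of the PERK and ATF4 list, 1 of 11 was higher in siMLX, beside 3.72% of all genes, with a median of 1.38. It was CEBPB, a partner of ATF4 (0.79 ± 0.21, edgeR adjusted p = 0.0482). With the replicate number as a block 4 of 11 were higher (ATF4, DDIT4, VEGFA and CEBPB), beside 6.52% of all genes. The list's median with the block was 0.91. Without siMLX replicate 2, and with no block, the list's median was 0.28, 0 were higher and 1, the stress-induced SESN2, was lower.

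Set directly against each other, siMondoA and siMLX differed in 15 of the 36 genes, 9 of them in ERAD with DERL3 counted. These values share their libraries with the comparisons above. In siMondoA 13 of the 36 genes were higher than in siMLX and 2 were lower, beside 12.9% of all genes called, 6.66% higher and 6.21% lower, and the median log2 fold change was 0.49, beside -0.001 over all genes, or 0.26 without siMondoA replicate 2. ERAD supplied 7 of the 13 (OS9, EDEM2, DERL1, EDEM1, HERPUD1, SEL1L and SYVN1) and both lower genes (EDEM3 and DERL3). Only DERL2 was uncalled of the 10. Of 25 other ERAD genes, outside the 36, 2 were higher and 1 lower in this comparison. That share lay near the 12.9% of all genes, and the median log2 fold change was 0.21. The other 6 higher genes were ERN1, HSP90B1, HYOU1, UGGT1, P4HB and SSR1. DERL3 passed the low-count filter here only with the siControl libraries in the fit, and was not tested with only the 6 libraries compared. Its raw counts were 4, 3 and 3 in siMondoA and 19, 9 and 13 in siMLX. OS9 had 223, 257 and 219 CPM in siMondoA, against 143, 132 and 125 CPM in siMLX (0.81 ± 0.13, 1.75-fold, edgeR adjusted p = 0.00405). EDEM2, a mannosidase that starts glycan trimming, had 39.8, 39.9 and 36 CPM in siMondoA, against 23.2, 20 and 21.9 CPM in siMLX (0.83 ± 0.15, 1.78-fold, edgeR adjusted p = 0.00647). The groups did not overlap for either gene. The siControl libraries, at 162 to 214 CPM, lay between them for OS9, while for EDEM2 they lay at 25.8 to 36.5 CPM, above siMLX, and the highest passed the lowest siMondoA library.

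EDEM3 showed the reverse, with 114, 105 and 103 CPM in siMondoA, against 175, 148 and 194 CPM in siMLX (-0.68 ± 0.12, 0.623-fold, edgeR adjusted p = 0.00762). SSR1 had 220, 266 and 183 CPM in siMondoA, against 149, 96.0 and 134 CPM in siMLX (0.82 ± 0.17, edgeR adjusted p = 0.0143). HERPUD1 had 64.4, 123 and 80.2 CPM in siMondoA, against 31.7, 59.8 and 32.0 CPM in siMLX, where the highest siMLX library came near the lowest siMondoA library (1.11 ± 0.27, edgeR adjusted p = 0.025). ERN1 differed by 1.63 ± 0.36 (edgeR adjusted p = 0.0165), or 2.29 ± 0.23 without siMLX replicate 2.

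EDEM2, EDEM3, DERL1 and OS9 kept their calls in all 11 alternatives. With only the 6 libraries compared, 3 of the 35 genes tested were higher and 1 lower, beside 2.8% and 2.75% of all genes, and those were the 4. Without siMondoA replicate 1, 17 genes were higher and 2 lower, beside 8.33% and 7.91% of all genes. Without siMondoA replicate 2, 6 were higher and 1 lower, beside 3.74% and 3.79%, and without siMondoA replicate 3, 7 and 1, beside 2.85% and 2.84%. Without siMLX replicate 1, 5 were higher and 1 lower, beside 2.82% and 2.74%, and without siMLX replicate 3, 7 and 1, beside 2.4% and 2.68%. Without siMLX replicate 2, 15 were higher and 3 lower, beside 12.6% and 9.91%. Without siMLX replicate 2, ATF6 (0.74 ± 0.18, edgeR adjusted p = 0.0168), XBP1 (1.26 ± 0.22, edgeR adjusted p = 0.00343) and HSPA13 (0.74 ± 0.20, edgeR adjusted p = 0.0231) also passed as higher and SDF2L1 (-0.92 ± 0.26, edgeR adjusted p = 0.027) as lower. Of the PERK and ATF4 list, 2 of 11 were higher in siMondoA with all libraries, beside 6.66% of all genes. Without siMLX replicate 2, 11 of 11 were, beside 12.6%.

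SBI-477 left the 36 genes close to DMSO as labelled. None passed (edgeR, 0 of 36, beside 0% of 14023 genes tested, 409 of which had an unadjusted p under 0.05; DESeq2 also gave 0), and no member had an unadjusted p under 0.05. Log2 fold changes ran from -0.48 to 0.33 with a median of 0.01. ERN1 had 9.99, 8.15 and 8.01 CPM with SBI-477, against 7.98, 4.74 and 7.99 CPM with DMSO. EDEM3 had 175, 141 and 154 CPM with SBI-477, against 144, 140 and 166 CPM with DMSO, the groups overlapping. HSPA5 had 1110, 1150 and 1110 CPM with SBI-477, within the 1140, 1260 and 1060 CPM of DMSO. ATF6 spanned 113 to 132 CPM with SBI-477 and 116 to 131 CPM with DMSO, EIF2AK3 14.9 to 17.0 and 13.9 to 17.1 CPM, and XBP1 90.9 to 97.9 and 103 to 111 CPM. The groups did not overlap for XBP1 (-0.18 ± 0.09, edgeR adjusted p = 1) or, by a margin of 0.02 CPM, for ERN1 (0.33 ± 0.24, edgeR adjusted p = 1).

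With replicates 1 and 3 only, a pair of libraries per group, 3 genes were higher and 2 lower with SBI-477, beside 9.07% and 9.02% of 14232 genes. CRELD2, a secreted ER stress factor, had 40.8 and 44.9 CPM with SBI-477, against 29 and 27.7 CPM with DMSO, and rose by 0.59 ± 0.09 (edgeR adjusted p = 0.00466). The libraries labelled replicate 2 held 34.3 CPM for SBI-477 and 61.5 CPM for DMSO, the opposite order. SEC61A1 had 503 and 510 CPM with SBI-477, against 396 and 396 CPM with DMSO (0.36 ± 0.08, edgeR adjusted p = 0.0172). DNAJB9 had 21.2 and 22.3 CPM with SBI-477, against 16.7 and 15.9 CPM with DMSO (0.42 ± 0.11, edgeR adjusted p = 0.0326). HSP90B1 had 978 and 909 CPM with SBI-477, against 1190 and 1150 CPM with DMSO (-0.31 ± 0.09, edgeR adjusted p = 0.0416). DERL3 had 31 and 35 counts with SBI-477, against 120 and 95 counts with DMSO (-1.43 ± 0.30, edgeR adjusted p = 0.0122), with 113 and 72 counts in the libraries labelled SBI-477 and DMSO replicate 2. The authors' deposited table gave CRELD2 a log2 fold change of 0.70 (adjusted p 0.000306), CALR 0.32 (0.00956), P4HB 0.26 (0.0296), HSP90B1 -0.25 (0.0398) and DERL3 -1.02 (0.0243).

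**Figure D4:**
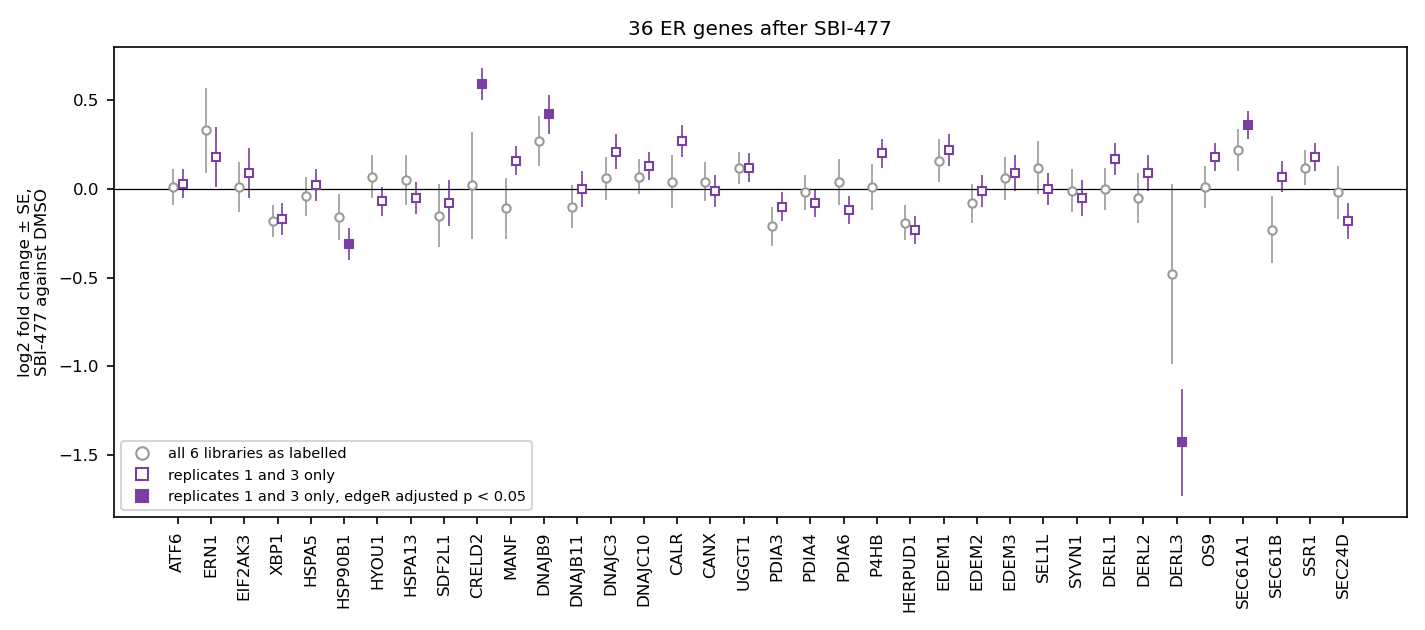
Log2 fold change of SBI-477 against DMSO with its standard error (y axis) for the 36 ER genes (x axis), with all 6 libraries as labelled (grey circles) and with replicates 1 and 3 only (purple squares, filled where the edgeR adjusted p was under 0.05). No grey circle passed, and the filled squares are CRELD2, DNAJB9 and SEC61A1 above 0 and HSP90B1 and DERL3 below.

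The effect of SBI-477 differed from that of siMondoA for 5 of the 36 genes, beside 10.4% of 14065 genes (4.74% higher and 5.65% lower), in an interaction test across both experiments (edgeR). The difference is the SBI-477 effect minus the siMondoA effect on the log2 scale. It was negative for ERN1 (-1.65 ± 0.32, edgeR adjusted p = 0.00717), XBP1 (-0.87 ± 0.23, edgeR adjusted p = 0.0277) and HERPUD1 (-0.93 ± 0.25, edgeR adjusted p = 0.0307), and positive for EDEM3 (0.95 ± 0.17, edgeR adjusted p = 0.00416) and DNAJC10 (0.53 ± 0.14, edgeR adjusted p = 0.0352). SBI-477 effects on these genes were 0.33, -0.18, -0.19, 0.06 and 0.07, beside siMondoA effects of 1.99, 0.71, 0.75, -0.87 and -0.44. ERN1 and EDEM3 kept the call in all 17 alternatives. XBP1 lost it without SBI-477 replicate 1 or 3, DMSO replicate 1, siMondoA replicate 2 or siControl replicate 2 or 3, and under the replicate block, with differences of -1.11 to -0.73 and an edgeR adjusted p up to 0.0704. HERPUD1 lost it without SBI-477 replicate 1 or 3, DMSO replicate 1 or any siControl library, and under the block (-1.13 to -0.65, edgeR adjusted p up to 0.0763). DNAJC10 kept it in 6 of 17, losing it under the block, without the low-count filter and without SBI-477 or DMSO replicate 1 or 3, any siMondoA library or siControl replicate 2 or 3 (0.46 to 0.59, edgeR adjusted p up to 0.106). With drug replicates 1 and 3, beside 8.51% of 13778 genes higher and 8.88% lower, those 5 genes were called again and CRELD2 was added (0.84). All 11 PERK and ATF4 targets were lower in the interaction, with a median difference of -3.43.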

How the data were processed

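RNA of 15 PSN-1 libraries was sequenced as paired 25-base reads on an Illumina HiSeq, per the labels' protocols. Tools named in the submitters' processing notes are HTSeq 0.6.1, TopHat2 2.1.0, bcl2fastq 1.8.4 and, with no version, edgeR; the builds are hg38 and mm10. Whether counting used strand is not given there. For each gene symbol the authors deposited one raw count per library and, per the file headers, their own log2 fold changes and p-values, raw and adjusted, used here only where named. Of the deposited value columns 3, the mean of scaled counts under a column name that DESeq2 writes, were not used.

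Counts were tested in R 4.3.3 with edgeR 4.0.16 (limma 3.58.1): filterByExpr, TMM scaling and the quasi-likelihood test, with no term for replicates. The 9 siRNA libraries shared a fit, as did the 6 drug libraries; the interaction used both experiments without siMLX. Adjusted p-values are Benjamini-Hochberg values over all genes tested, with a threshold of 0.05. CPM were TMM-scaled within each experiment; per-library medians used log2(CPM + 1) for genes of at least 1 CPM on average. Alternatives were DESeq2 1.42.0, RLE scaling, no low-count filter, a replicate block, leaving out each library, only the 6 libraries compared, and drug replicates 1 and 3. The scripts were tested on simulated counts. Same-numbered siMLX and siControl libraries deviated together (r = 0.30, 0.21 and 0.41), so the numbers may pair them. The main fit takes no account of this, and siMLX counts with the replicate block are given beside it. For the other groups the correlations do not settle whether numbers pair libraries.

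Exon lengths, positions and overlaps came from GENCODE v29 on GRCh38, whose union of exons overstates the length of single transcripts, and promoters from RefSeq on GRCh38.p14. Of 147 genes in the companion lists (PERK and ATF4 output, other mediators, other folding, ERAD, translocation and glycosylation, COPII and heat shock genes), 141 matched as listed and 6 by an older symbol. The 36 genes and these lists were chosen with earlier results of these data known. All 36 may be named; companion genes are the up to 4 of each list with the smallest adjusted p, and CHAC1, DDIT3, NUPR1 and SESN2 were added after their values were seen. The floor of 3 counts was worth 0.204 to 0.267 CPM for siRNA and 0.0984 to 0.129 CPM for the drug experiment, covering counting error only. Replicates differed beyond sampling noise, with a chi-square over its degrees of freedom of at least 8.37, so no library was a copy of another in its group. Libraries of different groups were not compared in this way.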

Additional observations from a re-analysis of the deposited data

Results flagged for a closer look

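In the interaction test across both experiments (edgeR), 5 of the 36 genes were called, beside 1462 of all 14065 genes tested (10.4%). For these 5 genes the effect of SBI-477 against DMSO differed from that of siMondoA against siControl. The difference on the log2 scale was -1.65 for ERN1, -0.87 for XBP1 and -0.93 for HERPUD1, and 0.95 for EDEM3 and 0.53 for DNAJC10. ERN1 and EDEM3 kept the call in all 17 alternatives, XBP1 and HERPUD1 in 10 each and DNAJC10 in 6. Drug libraries were used as labelled, although the deposited results and the labels of the replicates numbered 2 were at odds. The drug and siRNA libraries come from separate experiments with their own depths, so the experiment and the kind of treatment cannot be told apart.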

How the results depend on the processing

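No result that passed changed sign under any alternative. After siMondoA against siControl, 7 genes were higher with DESeq2 and 8 with the replicate block, beside 2043 and 2347 of 13001 genes. With only the 6 libraries 5 were higher, beside 2019 of 12808 genes. The authors' deposited table also gave an adjusted p under 0.05 to XBP1 (0.000708), HERPUD1 (0.00311), CALR (0.0129), HSPA13 (0.0131) and SEC24D (0.0289). After siMLX against siControl, 7 were lower with DESeq2 and 6 with the replicate block, beside 923 and 967 of 13001 genes. Genes called in all were 1686 and 1815, against 1094. For siMondoA against siMLX, the replicate block called 2606 genes in all, and only the 6 libraries gave 3 higher, 1 lower and 706 in all, against 1673. For SBI-477 against DMSO, replicates 1 and 3 gave 3 higher, 2 lower and 2575 in all, against 0. In the interaction, 1 gene was higher without the low-count filter, beside 628 of 20714 genes. With the replicate block 1 was higher and 1 lower, beside 222 and 291 of 14065 genes. Genes called in all were 513 with that block and 2397 with drug replicates 1 and 3, against 1462.

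Leaving out 1 library gave 2 to 6 higher, 2 to 3 lower and 1745 to 3884 in all for siMondoA against siControl, 0 to 0 higher, 0 to 2 lower and 254 to 833 in all for siMLX against siControl, 5 to 17 higher, 1 to 3 lower and 670 to 2970 in all for siMondoA against siMLX, 0 to 0 for each count of SBI-477 against DMSO, and 1 to 3 higher, 1 to 6 lower and 783 to 2234 in all in the interaction. The cause was not tested. For siMondoA, same-numbered libraries correlated with siControl at 0.13, 0.09 and 0.02 and with siMLX at 0.58, 0.48 and -0.12. These values do not settle whether the replicate number pairs the siMondoA libraries with others. The authors' siMondoA fold changes were rebuilt more closely with a replicate term (median gap 2.21e-13 in log2) than without one (0.00657). The same held for their siMLX fold changes (7.05e-13 with the term and 0.00629 without). The deposited siRNA fold changes thus match a fit with a replicate term, which the main fit here lacks. SBI-477 correlated with DMSO at -0.31, -0.59 and -0.52. The labels of the drug replicates numbered 2 are in doubt, so those values leave pairing there unsettled. Of calls on the 36 genes, the block ended only those of XBP1, HERPUD1 and DNAJC10 in the interaction. DERL3 lies near the floor of 3 counts in siMondoA, and its level there cannot be resolved further at this depth.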

Other observations

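Of 13 heat shock genes of the cytosol and mitochondria, which fold proteins outside the ER, 3 fell after siMondoA against siControl and 1 rose, a share near the 27.2% of all genes called, with a median log2 fold change of -0.46. The inducible HSPA1A had 10.3, 8.27 and 7.77 CPM in siMondoA, against 40.0, 29.7 and 32.2 CPM in siControl, and fell by 1.95 (SE 0.54, edgeR adjusted p = 0.0243). Its near-identical copy HSPA1B fell by 1.68 (SE 0.46, edgeR adjusted p = 0.0238), and short reads of this pair cannot be placed apart. HSPA8, the constitutive cytosolic chaperone, had 2460, 1550 and 2020 CPM in siMondoA, against 3570, 3950 and 3540 CPM in siControl, and fell by 0.88 (SE 0.26, edgeR adjusted p = 0.0301). The mitochondrial HSPA9 rose by 0.57 ± 0.19 (edgeR adjusted p = 0.0464). No siMondoA library overlapped the controls for these genes. In siMLX, HSPA1A had 41.7, 5.46 and 37.3 CPM, so replicate 2 lay with siMondoA and the others with the controls, and 0 of 13 passed against siControl (edgeR; 3 with an unadjusted p under 0.05). Without siMondoA replicate 2, 0 of the 13 passed after siMondoA and the median was -0.33.

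Of 39 further ER folding and redox genes, 3 rose and 7 fell after siMondoA, a share near the 27.2% of all genes called, with a median of -0.03. The oxidase ERO1B had 7.03, 8.5 and 7.05 CPM in siMondoA, against 17.1, 16.2 and 14.5 CPM in siControl, and fell by 1.08 (SE 0.15, edgeR adjusted p = 0.00131). The prolyl isomerase FKBP7 fell by 1.36 (SE 0.20, edgeR adjusted p = 0.00193) and the calcium-binding RCN2 by 0.64 (SE 0.17, edgeR adjusted p = 0.0203), while the membrane J-domain gene DNAJC1 rose by 1.24 ± 0.21 (edgeR adjusted p = 0.0034). Without siMondoA replicate 2, 1 of the 39 rose and 4 fell, beside 8.67% and 8.58% of all genes. FKBP7 was also lower in siMLX than in siControl (-0.76 ± 0.20, edgeR adjusted p = 0.0425) and DNAJC1 higher (0.78 ± 0.21, edgeR adjusted p = 0.0471), in comparisons that share the siControl libraries.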
